A study of Mus musculus with 18 samples.

Results

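The change from 2 to 24 h of hyperoxia in control alveolar type II cells was measured on 6 of the 18 arrays of the series, 3 at 24 h and 3 at 2 h, chosen by the time and the letter C in their titles. Type II cells are the cuboidal epithelial cells of the lung's air sacs that make surfactant. The cells of all 18 arrays were isolated from mice of 7 to 8 weeks of age, and total RNA was biotin labelled for mouse gene arrays. The control mice carried CEBP/a(flx/flx), the Cebpa gene flanked by recombination sites, and were littermates without the rtTA gene or without the Cre gene, so that some may have carried either transgene alone. The Cebpa-deleted mice, labelled CCSP/rtTA/CEBPa(flx/flx) (3 arrays at 24 h and 3 at 2 h), lost the gene in Clara cells, the secretory cells of the airways, from early gestation and in type II cells from near term. Controls and Cebpa-deleted mice at 0 h gave 3 further arrays each, which entered the estimate of the spread. The series design states hyperoxia for 2 and 24 h, while every sample description states air. The labels name neither animals, pools nor batches. P-values therefore measure the spread between these samples, which may be technical, and time and batch cannot be told apart.

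Breathing a high concentration of oxygen injures the lung's epithelium and capillaries through reactive oxygen species. Cells answer such stress with several transcription programs, among them the antioxidant genes of NRF2, the DNA damage genes of p53, the amino acid response that ATF4 drives and the unfolded protein response of the endoplasmic reticulum. Type II cells are also the progenitors of the flat type I cells that cover most of the gas exchange surface, and during repair they lose surfactant genes and gain type I genes.

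Values are expression levels on the log2 scale, so a change of 1 is a doubling, for 19938 genes. A gene was called where its adjusted p was below 0.05 in a linear model fitted to all genes with limma, with Benjamini-Hochberg adjustment. In control cells 2480 genes (12.4%) were called, of which 1590 (7.97%) were higher and 890 (4.46%) lower at 24 h than at 2 h. Most changes were small: 111 genes rose and 17 fell at least 2-fold. The groups of arrays did not overlap for 2459 of the called genes and for 38.7% of all genes. The median change over all genes was -0.061. The count was 1425, 1823 and 1477 without 24 h replicates 1, 2 and 3, and 1398, 1558 and 2143 without 2 h replicates 1, 2 and 3.

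The spread of values within an array moved with time. The interquartile range over all genes averaged 2.47 ± 0.04 on the 24 h control arrays and 2.25 ± 0.13 on the 2 h control arrays (SD, n = 3 each), and the groups did not overlap. Rises were called mostly among genes of high level and falls more often among genes of low level: in the third of 10 equal level classes from the bottom 39 genes were called higher and 137 lower, and in the ninth 389 were called higher and 61 lower. With each array's interquartile range as a covariate 2785 genes were called, 44.3% of them higher, against 64.1% in the fit used here, and after a second quantile normalization 58.3% of 2745 calls were higher. How much of a change belongs to this range was not tested beyond these fits. The counts for gene lists below are not matched to genes of like level. In the ninth class (levels 8.61 to 9.36) the 389 were of 1994 genes, and in the top class (9.36 to 14.05) 289 of 1994 were called higher. For a list of high level, a larger share of rises than among all genes is therefore not read as a property of the list.

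**Figure D1:**
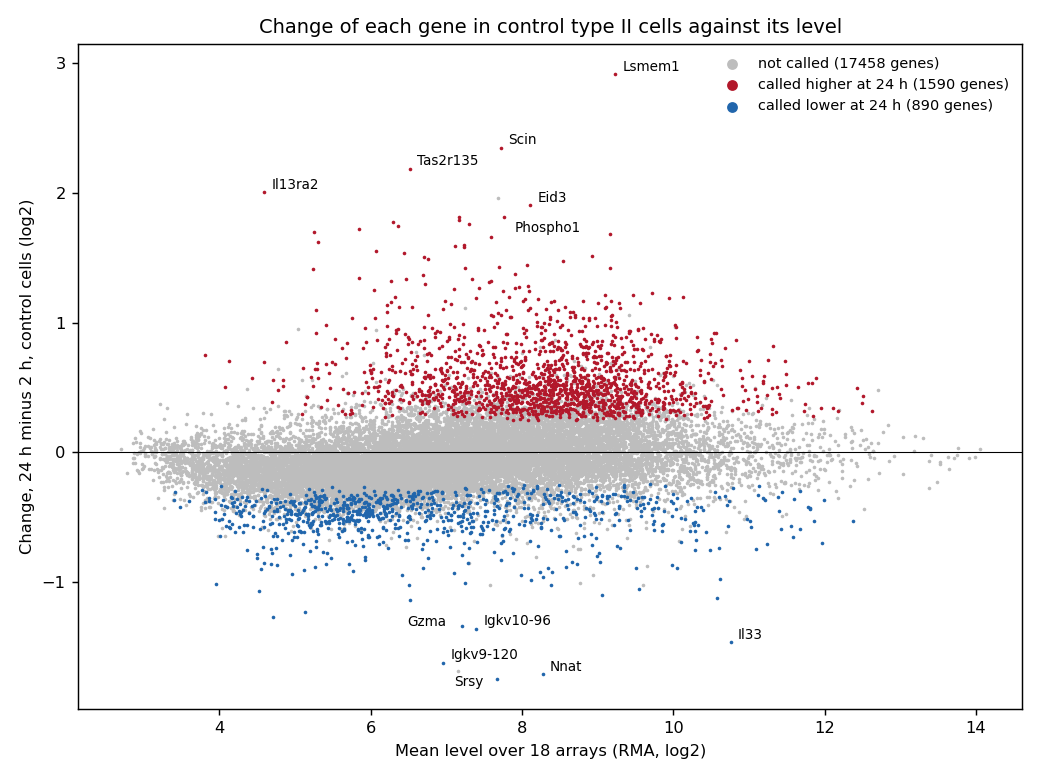
Change from 2 to 24 h in control cells (24 h minus 2 h, log2) against the mean level over 18 arrays (log2), 1 point per gene. Red points are the 1590 genes called higher, blue points the 890 called lower and grey points the genes not called; Lsmem1 stands highest at 2.91 and Srsy lowest at -1.74.

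The genes that define type II cells had high levels at both times. Sftpc, which encodes surfactant protein C and is the most specific gene of these cells, had a level of 13.82, 13.84 and 13.88 at 24 h, against 13.83, 13.81 and 13.82 at 2 h. Its change was 0.02 (95% interval -0.12 to 0.17, limma adjusted p = 0.849). The other surfactant protein genes likewise passed no threshold: Sftpa1 changed by -0.05, Sftpb by -0.02 and Sftpd by 0.08, where the signs of Sftpb, Sftpc and Sftpd turned in other settings. Sftpc was the highest value of each 24 h control array. The highest values of the 2 h control arrays were 13.86, 13.81 and 13.85. A change in genes at the top of the scale may thus not show, which was not tested, so a steady level is not concluded. Of 21 type II cell markers 0 were called higher and 1 lower, with a median change of -0.14. The mean of the 21 lay between 11.71 and 11.82 on the 24 h arrays, below the 11.85 to 12.10 of the 2 h arrays, and with the interquartile range as a covariate 10 of the 21 were called lower. Nkx2-1, the transcription factor that specifies lung epithelium, changed by -0.38 (adjusted p = 0.0886) and Cebpa by -0.25 (adjusted p = 0.362).

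The 1 type II marker that fell was Il33, an alarmin cytokine that the nucleus of type II cells stores. It had 10.25, 10.15 and 9.76 at 24 h, against 11.17, 11.44 and 11.93 at 2 h. All 24 h arrays lay below all 2 h arrays, a 2.76-fold fall (log2 change -1.46, SE 0.23, adjusted p = 0.000457).

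The largest rise of all was in Lsmem1, a single-pass membrane protein, with 11.29, 11.04 and 10.73 at 24 h, against 8.32, 8.30 and 7.69 at 2 h. That is a 7.53-fold rise (log2 change 2.91, SE 0.19, adjusted p = 9.07e-08). Scin, which encodes the actin-severing protein scinderin, had 9.39, 9.24 and 8.60 at 24 h, against 6.84, 6.93 and 6.43 at 2 h (5.08-fold, adjusted p = 2.75e-06). Il13ra2, the decoy receptor for interleukin 13, had 6.67, 6.18 and 5.85 at 24 h, against 4.15, 4.32 and 4.22 at 2 h (4.01-fold). In these 3 genes the lowest 24 h array stood more than 1 log2 unit above the highest 2 h array. Rises also came in 3 genes annotated as bitter taste receptors, G-protein-coupled receptors: Tas2r135 by 2.18, Tas2r143 by 1.72 and Tas2r126 by 1.54 on the log2 scale. Eid3, of the EID family of transcription inhibitors, rose by 1.90, the phosphatase gene Phospho1 by 1.81, Trim72, whose protein helps reseal torn cell membranes, by 1.81, Tbrg3 by 1.79, and Adam30 of the ADAM protease family by 1.78. The fibril-associated collagen gene Col12a1 rose by 1.76, the small nucleolar RNA gene Snord37 by 1.74, the antisense gene Phtf1os by 1.69, the membrane-anchored protease gene Mmp25 by 1.66, Brf2, a factor of RNA polymerase III, 3.03-fold, Zfp711 by 1.59 on the log2 scale and Scel, which encodes sciellin of the cornified envelope, by 1.55. Adjusted p-values of the genes given so far in this paragraph lay at or below 0.0032, and each kept its call whichever single array was left out. Cped1, which rose by 1.58 (adjusted p = 0.0152), did not. Its call was lost without 24 h replicate 2 or 3 or 2 h replicate 1 or 2 (highest adjusted p 0.0714).

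**Figure D2:**
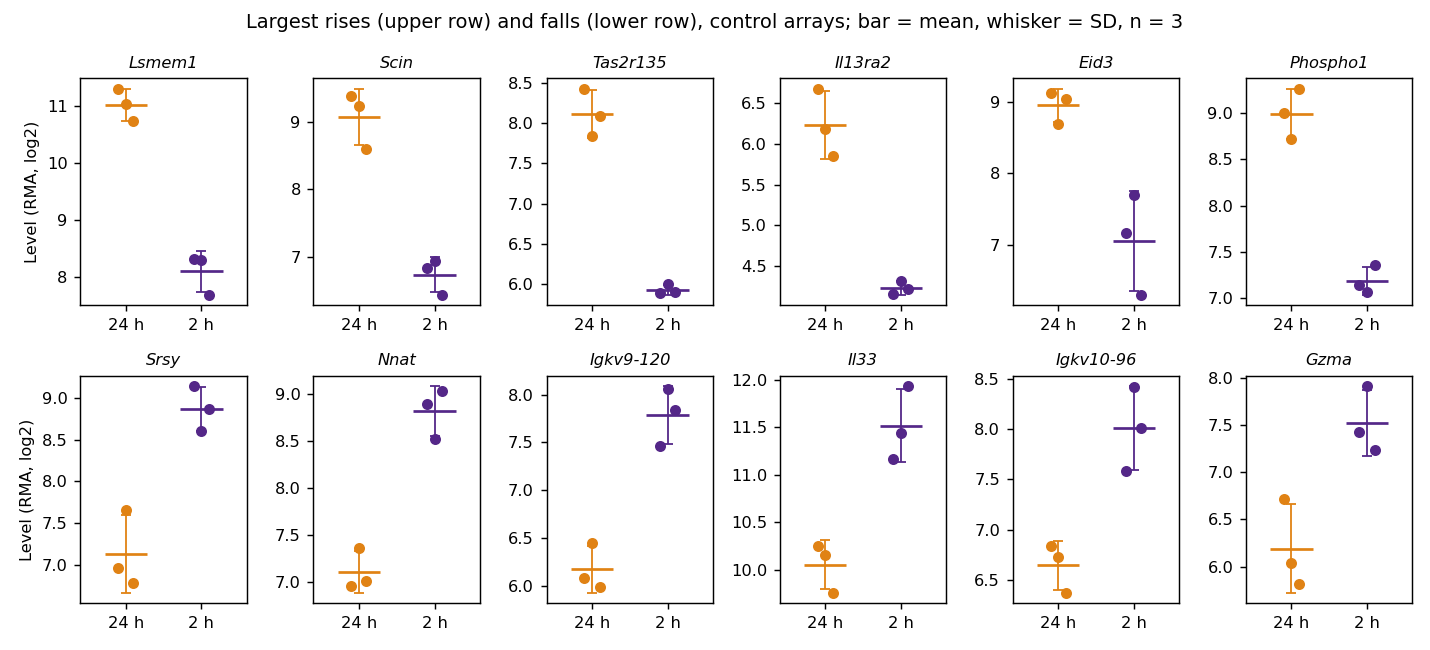
Level (log2) on each control array of the 6 genes with the largest rises (upper row) and the 6 with the largest falls (lower row), with 24 h on the left and 2 h on the right of each panel. Bars are means and whiskers SD (n = 3); in each of the 12 panels the groups do not overlap.

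Falls were fewer and smaller. Srsy, on chromosome Y, fell most, with 6.96, 7.66 and 6.78 at 24 h, against 9.14, 8.61 and 8.87 at 2 h (log2 change -1.74, SE 0.22, adjusted p = 5.82e-05). It belongs to a family of near-identical copies and had 19 features on the array, so its signal may not be that of 1 gene. The sex of the animals is not in the labels: Xist, transcribed from the inactive X, lay between 8.97 and 9.48 at 24 h and between 8.26 and 8.86 at 2 h, and Y-linked Eif2s3y between 7.48 and 8.14 at 24 h and between 7.06 and 7.32 at 2 h, so that both were higher at 24 h. Nnat, the imprinted gene of neuronatin, had 6.95, 7.36 and 7.01 at 24 h, against 8.90, 8.52 and 9.03 at 2 h (3.27-fold lower, adjusted p = 5.23e-06). Hdc, which makes histamine from histidine, fell by 1.12 on the log2 scale (adjusted p = 0.0129), a call lost without 24 h replicate 3 or 2 h replicate 3 (highest adjusted p 0.082).

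Several of the other large falls were in genes of lymphocytes and plasma cells. The antibody kappa light chain segments of largest change fell by 1.62 and 1.36, the heavy chain gene Ighg3 by 1.22 and Jchain, which joins antibodies into polymers, by 1.02 (adjusted p = 0.022). Gzma, a granzyme of killer cells, had 6.72, 6.04 and 5.82 at 24 h, against 7.43, 7.91 and 7.24 at 2 h (log2 change -1.33, SE 0.27, adjusted p = 0.0035). The chemokine gene Ccl5, strongly expressed by such cells, fell by 1.05 (adjusted p = 0.0017) and the interleukin 2 receptor gene Il2rb by 0.92 (adjusted p = 0.0272). The other falls of this size were in Mir680-2 (-1.10), Krtap5-4 (-1.02), Ssxb10 (-1.01), Fam178b (-1.01), Rny3 (-0.98), the cartilage protein gene Chad (-0.96), Serpinb2 (-0.94), Myl7 (-0.93) and Mir680-1 (-0.92). The calls of Jchain, Il2rb, Krtap5-4, Ssxb10, Rny3 and Serpinb2 were each lost without at least 2 of the single arrays, 24 h replicate 1 or 3 among them for each gene (highest adjusted p 0.144). Of 13 lymphocyte markers 0 were called higher and 3 lower: Gzma, Nkg7 of cytotoxic granules (-0.70) and Cd2 of T and killer cells (-0.68). T cell receptor subunit Cd3e (-0.08) and B cell receptor subunit Cd79b (0.02) were not called. The mean of the 13 lay between 6.44 and 7.03 on the 24 h arrays and between 6.88 and 7.20 on the 2 h arrays. Gzma alone stayed called without 24 h replicate 2 or 3 or 2 h replicate 1 or 2, and 1 of the 13 was called with the interquartile range as a covariate. In such isolates fewer cells of a type and less RNA per cell cannot be told apart.

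Markers of other cells that an isolate can hold were called in few cases. Of 16 endothelial markers 0 were called (median 0.28), with a mean of 8.06 to 8.74 on the 24 h arrays and 7.88 to 8.24 on the 2 h arrays. Of 16 fibroblast and smooth muscle markers, 14 neutrophil markers and 3 erythroid markers 0 were called in limma either, and 1, 2 and 1 of them had an unadjusted p below 0.05, as had 2 of the endothelial ones. With the interquartile range as a covariate 3 endothelial markers were called higher. Of 6 mesothelial markers 1 was called higher. Among 17 macrophage markers Csf1r, the receptor for colony-stimulating factor 1, rose by 0.81 (adjusted p = 0.0058), while the complement gene C1qa fell by 0.43 (adjusted p = 0.0363, lost without 24 h replicate 1 or 2 or 2 h replicate 1 or 2, highest 0.161). Their mean was 7.01 to 7.29 on the 24 h arrays and 7.03 to 7.42 on the 2 h arrays. Airway markers were present at both times. Scgb1a1, the main secretory protein of Clara cells, had a level of 13.56, 13.59 and 13.61 at 24 h, against 13.62, 13.63 and 13.58 at 2 h. Of 10 airway secretory markers 2 fell, Scgb3a2 by 0.60 and Aldh1a7 by 0.35, and of 10 ciliated cell markers 3 fell, Rsph1 by 0.52, Tppp3 by 0.42 and Tekt1 by 0.40. The ciliated count was 0, 0 and 2 without 24 h replicates 1, 2 and 3 and 0, 0 and 1 without 2 h replicates 1, 2 and 3. With the interquartile range as a covariate 0 ciliated and 1 airway secretory marker were called lower, and 2 macrophage markers higher and 0 lower. The airway calls were lost without 2 h replicate 1 and without 1 or more others (highest adjusted p 0.163 for Scgb3a2 and 0.156 for Aldh1a7).

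Several genes of type I cells were higher at 24 h, while the 2 markers of highest level were not called. Of 15 type I markers 7 were called higher and 0 lower, with a median change of 0.74. Akap5, a scaffold protein for protein kinase A, had 9.20, 9.90 and 9.29 at 24 h, against 8.02, 7.42 and 8.53 at 2 h (log2 change 1.47, SE 0.41, adjusted p = 0.0236). Igfbp2, which binds insulin-like growth factors, had 8.48, 8.95 and 8.57 at 24 h, against 7.31, 7.00 and 7.73 at 2 h (change 1.32, SE 0.36). Pdpn, the membrane glycoprotein podoplanin that covers the type I surface, had 8.83, 9.61 and 9.01 at 24 h, against 8.06, 7.75 and 8.17 at 2 h (change 1.16, SE 0.35). In each of these the groups were separate, with 24 h replicate 2 highest and 2 h replicate 2 lowest. More type I cells in the 24 h isolates and a rise of these genes within type II cells cannot be told apart.

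The homeodomain protein gene Hopx rose by 0.97, the basement membrane collagen gene Col4a3 by 0.81, the chloride channel protein gene Clic5 by 0.74 and the vascular growth factor gene Vegfa by 0.47. Ager, the receptor for glycation end products and the most abundant type I transcript here, had 11.90, 12.20 and 11.83 at 24 h, against 11.97, 11.96 and 12.26 at 2 h, with overlapping groups. Its change was -0.09 and that of the tight junction gene Cldn18 -0.26, neither called. The water channel gene Aqp5 changed by 0.02. The mean of the 15 markers lay between 9.41 and 10.10 at 0 h, 9.04 and 9.51 at 2 h, and 9.70 and 10.15 at 24 h, so that the 24 h and 0 h ranges overlapped. The interquartile range of the 0 h control arrays averaged 3.01 ± 0.03 (SD, n = 3), and Sftpc averaged 14.60 on them. Their highest values were 14.57 to 14.62, against 13.81 to 13.88 on the control arrays at 2 and 24 h. Levels at 0 h may thus lie on another scale than the later ones, which was not tested.

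Of the type I genes, Akap5, Igfbp2 and Hopx lost their calls without 24 h replicate 2 or 3 or 2 h replicate 1 or 2 (highest adjusted p 0.113, 0.0941 and 0.13), Vegfa without 4 arrays (0.0897) and Pdpn without any 1 (0.145). The count of higher markers was 5, 1 and 2 without 24 h replicates 1, 2 and 3 and 1, 1 and 6 without 2 h replicates 1, 2 and 3. With the interquartile range as a covariate 1 member was called higher, Col4a3, which kept its call in every other setting too. Also 1 member was then called lower, and the median change was 0.45.

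In Cebpa-deleted cells the type I markers did not show this rise. Their median change from 2 to 24 h was -0.28 in Cebpa-deleted cells, against 0.74 in control cells. The difference between the 2 changes was called for 6138 of all genes (30.8%), in 3280 of them (16.5%) as a lower change in Cebpa-deleted cells, and for 10 of the 15 type I markers, all lower. For Igfbp2 it was -1.59 (limma adjusted p = 0.0294), for Pdpn -1.37 (adjusted p = 0.0451) and for Col4a3 -0.86 (adjusted p = 0.0193). Akap5 (-1.11, adjusted p = 0.137) and Hopx (-0.99, adjusted p = 0.0644) did not pass. The markers were taken up for their rise in control cells, and the control change also enters the difference. That choice favours lower differences, so no conclusion on genotype is drawn from the count. The interquartile range averaged 1.94 ± 0.16 on the Cebpa-deleted 24 h arrays and 2.35 ± 0.20 on the Cebpa-deleted 2 h arrays (SD, n = 3 each), so it was narrower at 24 h there and wider at 24 h in controls. With it as a covariate 0 genes passed the limma test of the difference (1774 at an unadjusted p below 0.05). As the range moved along with this contrast, that fit also estimates the difference less precisely. Range and genotype cannot be told apart in it.

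**Figure D3:**
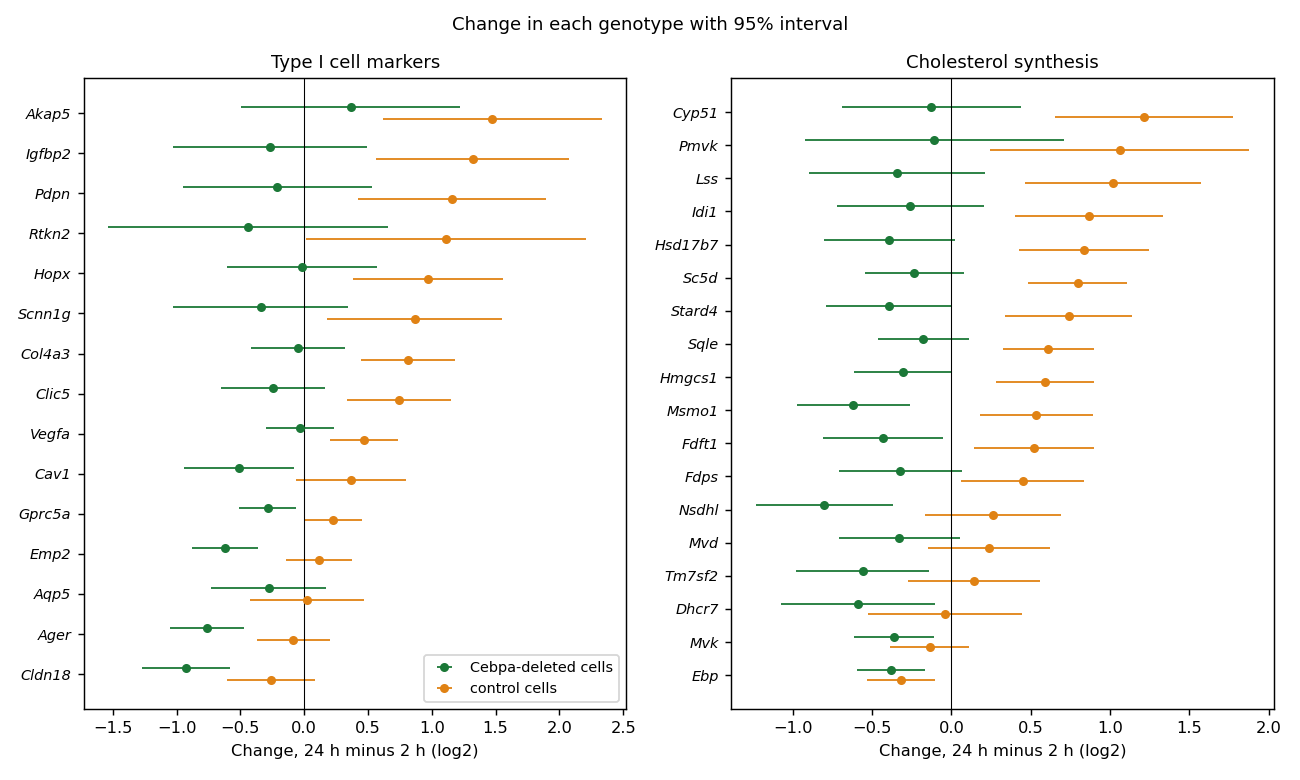
Change from 2 to 24 h (log2) with its 95% interval for each measured type I marker (left) and cholesterol synthesis gene (right), with Cebpa-deleted cells in green above control cells in orange. The control changes lie to the right of the Cebpa-deleted ones for every gene drawn; 7 of 15 type I markers and 9 of 18 cholesterol genes were called higher in control cells.

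Of 18 measured enzymes and carriers of cholesterol synthesis 9 were called higher and 1 lower, with a median change of 0.56. Cyp51, which removes a methyl group from lanosterol, had 9.86, 10.07 and 9.94 at 24 h, against 8.71, 8.40 and 9.12 at 2 h (2.32-fold, SE 0.27 on the log2 scale, adjusted p = 0.006). Lss, which closes the sterol rings, had 9.68, 10.07 and 9.93 at 24 h, against 8.78, 8.57 and 9.28 at 2 h (change 1.02, SE 0.26). The 24 h arrays of both lay within a narrow band, while the 2 h arrays were scattered with replicate 3 highest. Idi1, an isomerase of the isoprenoid step, rose by 0.87, Hsd17b7 by 0.83, Sc5d by 0.80, the cholesterol carrier gene Stard4 by 0.74, the squalene oxidation gene Sqle by 0.61 and Hmgcs1, which starts the pathway, by 0.59. The member that fell was Ebp, a sterol isomerase, by 0.32 (adjusted p = 0.047). Fdft1 (0.52, adjusted p = 0.0663) and Fdps (0.45, adjusted p = 0.117), of high level, did not pass.

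The array mean of the 18 was 9.90 to 10.11 at 0 h, 9.10 to 9.63 at 2 h and 9.75 to 9.94 at 24 h. As given above, the 0 h levels may lie on another scale. The count of higher members was 8, 5 and 5 without 24 h replicates 1, 2 and 3, 5, 3 and 11 without 2 h replicates 1, 2 and 3, and 3 with the interquartile range as a covariate. Lss and Idi1 lost their calls without 24 h replicate 2 or 3 or 2 h replicate 1 or 2 (highest adjusted p 0.082 and 0.0749), and Hsd17b7 without 24 h replicate 2 or 2 h replicate 2 (0.0538), while Cyp51 and Sc5d kept theirs. The median change was -0.35 in Cebpa-deleted cells, against 0.56 in control cells, and the difference was called lower for 12 of the 18. As for the type I markers, the control change enters this count, and no conclusion is drawn from it.

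The regulators of this pathway gave a smaller signal. Srebf2, the transcription factor that drives the cholesterol genes, rose by 0.36 (adjusted p = 0.0431) and Scap, its escort protein, by 0.35 (adjusted p = 0.0397), both lost without any 1 of 5 arrays (highest adjusted p 0.161 and 0.15). Insig1, which retains the complex in the endoplasmic reticulum, changed by 0.42 (adjusted p = 0.148). The coactivator gene Ppargc1a rose by 0.96 (SE 0.12, adjusted p = 5.17e-05) and the cholesterol exporter gene Abca1 by 0.78 (adjusted p = 9.34e-05). Of 14 such regulators 4 rose in all, or 2 without any 1 array other than 2 h replicate 3, where it was 4, and 2 with the interquartile range as a covariate. Among surfactant lipid and lamellar body genes 3 of 23 rose and 1 fell: the phosphatidate phosphatases Lpin1 by 0.85 and Lpin2 by 0.80, the choline kinase Chka by 0.62, and the acyltransferase Gpam by -0.75. In fatty acid synthesis 2 of 20 rose, acetyl-CoA carboxylase, Acaca, by 0.79 and malic enzyme, Me1, by 0.49, and 1 fell, Hacd3 by 0.75. Gpam lost its call without 2 h replicate 3 (adjusted p = 0.0573) and Me1 without 2 h replicate 1 (0.0665). Scd1, the desaturase of highest level, changed by 0.11 (adjusted p = 0.522). Of 19 fatty acid oxidation genes 0 were called in limma (2 at an unadjusted p below 0.05). With the interquartile range as a covariate 11 surfactant lipid genes, 8 fatty acid synthesis genes, 4 of the regulators and 3 oxidation genes were called lower.

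Many genes of the amino acid response were called higher, and several chaperones of the endoplasmic reticulum lower. In the amino acid response 11 of 23 measured members were called higher and 0 lower, with a median change of 0.36. Asns, asparagine synthetase, had 10.76, 10.60 and 10.94 at 24 h, against 9.88, 9.90 and 9.59 at 2 h (change 0.98, SE 0.16, adjusted p = 0.000488). Slc7a5, which carries large neutral amino acids, had 10.20, 10.24 and 10.40 at 24 h, against 9.59, 9.45 and 9.18 at 2 h (change 0.87, SE 0.14). The seryl-tRNA synthetase gene, Sars, rose by 0.78, the mitochondrial folate enzyme gene Mthfd2 by 0.78, the lipoprotein receptor gene Vldlr by 0.82 and Phgdh, the first enzyme of serine synthesis, by 0.53. Cebpg, a C/EBP family member that pairs with ATF4, rose by 0.50 (adjusted p = 0.009), lost without 24 h replicate 3 (adjusted p = 0.0607), as was that of Mthfd2, also without 2 h replicate 3 (highest 0.0619). Atf4 itself changed by 0.31 (adjusted p = 0.111), Ddit3 by 0.31 (adjusted p = 0.0759) and Ppp1r15a by 0.01. The count was 7, 10 and 4 without 24 h replicates 1, 2 and 3 and 8, 7 and 6 without 2 h replicates 1, 2 and 3.

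In the unfolded protein response 2 of 23 members were called higher and 9 lower, with a median change of -0.30. Both that rose are sensors in the membrane of the endoplasmic reticulum. Ern1, the kinase and RNase IRE1, had 9.34, 9.14 and 9.25 at 24 h, against 8.17, 8.40 and 8.34 at 2 h (change 0.94, SE 0.09, adjusted p = 4.36e-06), and Atf6 rose by 0.43 (adjusted p = 0.0041). Those that fell were mostly folding enzymes and chaperones inside the compartment. Pdia6, a disulfide isomerase, had 10.64, 10.71 and 10.51 at 24 h, against 11.26, 11.28 and 11.55 at 2 h (change -0.75, SE 0.12, adjusted p = 0.000369). Pdia4, of the same family, fell by 0.69, the chaperone genes Hyou1 by 0.56 and Hsp90b1 by 0.53, Creld2 by 0.46, Pdia3 by 0.42, the calcium-binding chaperone Calr by 0.37, the transcription factor Xbp1 by 0.35 and Dnajc3 by 0.33. The best known chaperone of the group, Hspa5 (BiP), had 11.96, 11.98 and 11.56 at 24 h, against 12.13, 12.13 and 12.11 at 2 h, and its change of -0.30 did not pass (adjusted p = 0.0695). For Pdia6, Pdia4, Hyou1, Hsp90b1 and Ern1 the groups were separate and the call was kept whichever array was left out, while the count of lower members was 5, 7 and 7 without 24 h replicates 1, 2 and 3 and 8, 6 and 5 without 2 h replicates 1, 2 and 3.

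These chaperone genes fell in Cebpa-deleted cells as well. Pdia6 changed by -1.02 in Cebpa-deleted cells, against -0.75 in control cells, and the difference of -0.27 did not pass (adjusted p = 0.197). The median of the 23 was -0.47 in Cebpa-deleted cells, against -0.30 in control cells. The amino acid response had a median of -0.04 in Cebpa-deleted cells, against 0.36 in control cells, and the difference was called lower for 11 of its 23 members, among them Asns (-1.11, adjusted p = 0.0053). As for the type I markers, the control change of this rising list enters the count, and no conclusion is drawn from it.

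**Figure D4:**
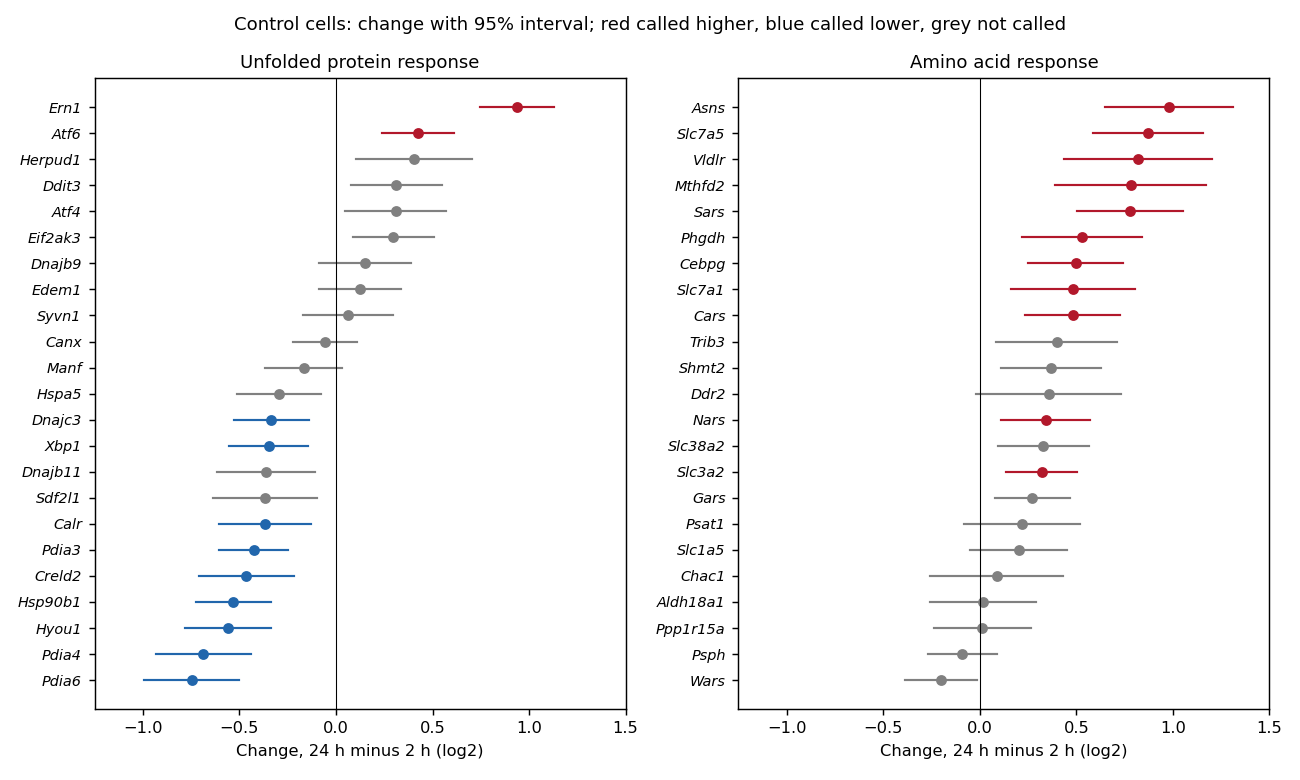
Change from 2 to 24 h in control cells (24 h minus 2 h, log2) with its 95% interval for the 23 measured members of the unfolded protein response (left) and of the amino acid response (right). Red members were called higher, blue lower and grey not called; on the left 2 are red and 9 blue, and on the right 11 are red and 0 blue.

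The promoters of several of the falling genes hold the ER stress response element, the sequence through which ATF6 and its partner NF-Y act. The motif was searched as CCAAT and CCACG with any 9 bases between them, on both strands, in the 250 bases before the start of each gene, with RefSeq promoters of the mouse build GRCm38.p6. It was found in 37 of 32851 promoters (0.113%) and in 8 of the 20 members that had a promoter in the table: 5 of 8 called lower, 3 of 11 not called and 0 of 1 called higher. The list holds known targets of the element, so the match is a property of the list and not of the change. Stretches of 60 bases are shown 5′ to 3′ on the strand of the gene for Pdia6 (chr12:17266470-17266529, plus strand), Hsp90b1 (chr10:86705513-86705572, minus strand) and Creld2 (chr15:88819499-88819558, plus strand), which fell, and for Hspa5 (chr2:34772004-34772063, plus strand), which was not called. They lie upstream of the annotated start of each gene, and for Hsp90b1, which has 2 matches, the one nearer the start is shown. Capitals mark the fixed letters of the motif, which in Hsp90b1 and Creld2 lies on the opposite strand and so reads CGTGG before ATTGG.
Pdia6: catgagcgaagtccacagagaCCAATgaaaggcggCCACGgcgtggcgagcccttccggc
Hsp90b1: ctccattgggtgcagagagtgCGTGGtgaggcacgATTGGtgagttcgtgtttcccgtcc
Creld2: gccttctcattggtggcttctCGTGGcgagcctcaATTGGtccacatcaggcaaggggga
Hspa5: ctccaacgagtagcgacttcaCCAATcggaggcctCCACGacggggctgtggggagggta

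For the amino acid response the core of the C/EBP-ATF element, TGATGNAA, was found in 1134 of 32851 promoters (3.45%) and in 4 of 18 members, 2 of 8 called higher and 2 of 10 not called. It is shown for Asns, the member with the largest rise, in the 60 bases before its start (chr6:7693210-7693269, minus strand, GRCm38.p6), with its fixed letters in capitals.
Asns: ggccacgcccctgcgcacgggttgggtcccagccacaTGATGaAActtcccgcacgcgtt

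Of 19 heat shock proteins and co-chaperones 2 rose and 3 fell. Without 24 h replicate 1 the number that fell was 5, and with the interquartile range as a covariate 1 rose and 4 fell. The co-chaperones Stip1 (-0.61, SE 0.11, adjusted p = 0.0016), Fkbp4 (-0.61, SE 0.12) and Dnaja4 (-0.47, SE 0.10) were lower at 24 h, and the mitochondrial chaperone Hspa9 was higher by 0.53 (adjusted p = 0.000719), as was Hspb8 by 0.54 (adjusted p = 0.0214, lost without 24 h replicate 1 or 3 or 2 h replicate 2 or 3, highest 0.104). Hspa8 (-0.07) and Hsp90aa1 (0.01), the most abundant of them, were not called.

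Several antioxidant genes of the NRF2 program were higher at 24 h. Of 31 measured members 12 were called higher and 0 lower, with a median change of 0.32, and 29 of the 31 changes were above 0. Akr1b8, an aldo-keto reductase, had 9.37, 9.32 and 9.32 at 24 h, against 8.52, 8.49 and 8.06 at 2 h (change 0.98, SE 0.19, adjusted p = 0.0027). Nqo1, the quinone reductase that serves as a standard readout of NRF2, had 7.69, 7.67 and 7.84 at 24 h, against 7.00, 6.81 and 6.92 at 2 h (change 0.82, SE 0.14, adjusted p = 0.000749). Gstp1, a glutathione transferase, rose by 0.60, the sugar nucleotide enzyme gene Ugdh by 0.59 and the ferritin light chain gene Ftl1 by 0.49. Gclm and Gclc, the subunits of the enzyme that limits glutathione synthesis, rose by 0.42 and 0.35. Nfe2l2, the gene of NRF2, changed by 0.30 (adjusted p = 0.0942), the heme oxygenase gene Hmox1 by 0.18 (adjusted p = 0.456) and Fth1, the ferritin heavy chain, by 0.12 (adjusted p = 0.306).

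The NRF2 count was 9, 10 and 7 without 24 h replicates 1, 2 and 3, 8, 10 and 8 without 2 h replicates 1, 2 and 3, and 8 after a second quantile normalization. The array means of the list were 10.26 to 10.34 at 0 h, 9.80 to 9.89 at 2 h and 10.13 to 10.22 at 24 h. The interquartile range averaged 3.01 on the 0 h arrays, against 2.25 at 2 h and 2.47 at 24 h. The 0 h levels may thus lie on another scale. The median change was near 0 in Cebpa-deleted cells, where the difference was called lower for 9 of the 31. The control change enters this count too, and no conclusion is drawn from it.

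Genes listed for the defence against superoxide and peroxide, not all of them enzymes, were called in both directions. Of 24 such genes 3 were called higher and 2 lower, with a median of 0.02. Thioredoxin, Txn1, rose by 0.38 (SE 0.07, adjusted p = 0.0025), and the metallothionein genes Mt2 and Mt1 rose by 0.37 and 0.34. Catalase, Cat, fell by 0.35 (adjusted p = 0.0293) and the peroxidase gene Gpx8 by 0.45 (adjusted p = 0.0155). Sod1, the cytosolic superoxide dismutase, had 11.30, 11.32 and 11.29 at 24 h, against 11.26, 11.34 and 11.20 at 2 h, a change of 0.04 (adjusted p = 0.812). Of these calls only that of Txn1 was kept whichever array was left out (highest adjusted p 0.153 for Mt2, 0.109 for Cat, 0.0914 for Mt1 and 0.0749 for Gpx8). The higher count was 1, 3 and 1 without 24 h replicates 1, 2 and 3 and 1, 2 and 2 without 2 h replicates 1, 2 and 3, and 6 were called lower with the interquartile range as a covariate.

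Of 24 p53 targets 6 were called higher and 0 lower, with a median of 0.08. Ccng1, cyclin G1, had 11.19, 11.05 and 11.17 at 24 h, against 10.14, 10.23 and 10.29 at 2 h (change 0.92, SE 0.08, adjusted p = 2.46e-06). Phlda3, an inhibitor of AKT, rose by 0.69 (adjusted p = 0.0017) and Zmat3, a zinc finger protein gene, by 0.47 (adjusted p = 0.0071). Plk3 rose by 0.56 and Trp53inp1 by 0.44, both lost without 4 of the single arrays (24 h replicate 1 and 2 h replicates 1 and 3 for both, highest adjusted p 0.0778 and 0.173). Mdm2, the ubiquitin ligase that limits p53, changed by 0.05 (adjusted p = 0.756) and Btg2 by 0.04. The count was 3, 4 and 4 without 24 h replicates 1, 2 and 3 and 3, 6 and 3 without 2 h replicates 1, 2 and 3, while Ccng1, Phlda3 and Zmat3 kept their calls. In Cebpa-deleted cells Ccng1 changed by 0.59 (adjusted p = 0.000245), against 0.92 in control cells.

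Several genes that respond to TGF-β and to the mechanical coactivator YAP were higher at 24 h. Of 18 members 7 rose and 0 fell, with a median of 0.32. Ankrd1, a nuclear ankyrin repeat protein and YAP target, had 7.40, 7.66 and 7.27 at 24 h, against 6.08, 6.26 and 6.02 at 2 h (change 1.32, SE 0.21, adjusted p = 0.000457). Ccn2, connective tissue growth factor, had 8.99, 9.52 and 9.49 at 24 h, against 8.42, 8.23 and 8.10 at 2 h (change 1.08, SE 0.24, adjusted p = 0.0062). Its relative Ccn1 rose by 0.53 (lost without 24 h or 2 h replicate 3, highest adjusted p 0.101), and so did Ski, a repressor of SMAD proteins. Itgb6, part of the integrin that activates latent TGF-β on epithelium, rose by 0.47 (adjusted p = 0.0042). Thbs1, which also activates latent TGF-β, changed by 0.07 (adjusted p = 0.748) and the ligand gene Tgfb1 by -0.28 (adjusted p = 0.148). The count was 4 without 2 h replicate 3 and 5 or 6 without any other single array.

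Of 22 basement membrane and matrix genes 6 were called higher and 1 lower (2 lower with the interquartile range as a covariate), with a median of 0.03. Lama3 and Lama5, laminin chains of epithelial basement membranes, rose by 1.11 (adjusted p = 0.0131, or 0.0707 without 24 h replicate 3) and 0.63 (adjusted p = 0.000687). Col4a2, a collagen IV chain, rose by 0.58, and Timp3, a protease inhibitor bound to matrix, had 11.68, 11.58 and 11.80 at 24 h, against 11.03, 10.83 and 11.05 at 2 h (change 0.71, SE 0.11). Plau, the urokinase plasminogen activator, fell by 0.89 (SE 0.17, adjusted p = 0.0025), with 8.61, 8.86 and 8.94 at 24 h, against 9.78, 9.69 and 9.62 at 2 h. Its receptor gene, Plaur, changed by -0.40 (adjusted p = 0.145). The fibroblast markers given above, of which 0 of 16 were called, had array means of 6.69 to 7.10 at 24 h and 6.64 to 7.06 at 2 h.

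Ion transport genes rose in 5 of 16 cases and fell in 0. Cftr, the chloride channel mutated in cystic fibrosis, had 9.42, 9.39 and 9.42 at 24 h, against 8.06, 8.15 and 8.92 at 2 h. Its change of 1.04 (adjusted p = 0.0158) was lost without 24 h replicate 1 or 3 or 2 h replicate 1 or 2 (highest adjusted p 0.0847). The bicarbonate transporter gene Slc4a4 rose by 0.86 (adjusted p = 0.0024) and the sodium, potassium and chloride cotransporter gene Slc12a2 by 0.51 (adjusted p = 0.0023). Scnn1a, a subunit of the epithelial sodium channel, changed by 0.16 and Atp1b1, a subunit of the sodium pump, by 0.09. The count was 3, 4 and 2 without 24 h replicates 1, 2 and 3, 3, 3 and 5 without 2 h replicates 1, 2 and 3, and 2 with the interquartile range as a covariate.

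Of 20 transcription factors of the lung lineage 6 were called higher and 0 lower (3 higher without 24 h replicate 3, and 5 lower with the interquartile range as a covariate). Tfcp2l1 had 9.65, 9.60 and 9.80 at 24 h, against 8.70, 8.84 and 8.94 at 2 h (change 0.86, SE 0.18, adjusted p = 0.0045). Foxp2 rose by 0.53, as did Tead1, the DNA-binding partner of YAP (adjusted p = 0.0012). Etv5, which maintains the type II state, changed by -0.31 (adjusted p = 0.172) and Id2 by -0.49 (adjusted p = 0.0993), neither called. Notch2, a receptor of the Notch pathway, rose by 0.86 (SE 0.11, adjusted p = 6.41e-05) and the BMP receptor gene Bmpr2 by 0.62, while Bmp4 fell by 0.59 (adjusted p = 0.0113, or 0.0675 without 24 h replicate 3) and Bmp2 rose by 0.58 (adjusted p = 0.0162, at most 0.077 without 1 of 4 arrays). In all 4 of 24 Wnt, Notch and BMP genes rose and 1 fell, and the higher count was 2 without 24 h replicate 3 or 2 h replicate 1 or 2. Of genes reported in the transitional state between type II and type I cells 3 of 18 rose and 1 fell: the stress protein gene Nupr1 by 0.71 and the lectin gene Lgals3 by 0.66, against the tight junction gene Cldn4 by -0.53 (Lgals3 lost without 24 h replicate 3, adjusted p = 0.0522, and Cldn4 without 2 h replicate 1, 0.0538), while Krt8 changed by -0.03 (adjusted p = 0.862).

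Both oxygen-regulated HIF subunits measured were higher. Epas1 (HIF-2α) rose by 0.49 (SE 0.09, adjusted p = 0.0021) and Hif1a by 0.46 (adjusted p = 0.0069). Of 26 genes listed for glycolysis and HIF 6 rose and 0 fell. Epas1 itself is 1 of the 6, as are Ero1a of oxidative protein folding (0.64) and the phosphofructokinase gene Pfkp (0.57). Hk2 (0.50) and Vegfa (0.47) are too, and lost their calls without any 1 of 5 and of 4 arrays (highest adjusted p 0.113 and 0.0897). The glycolytic genes of highest level, Hk1 (0.15) and Aldoa (0.22), were not called, and the median was 0.05. With the interquartile range as a covariate 4 were called higher and 4 lower. The array means of this list were 9.35 to 9.44 at 24 h and 9.24 to 9.34 at 2 h. Of all genes with levels of 8.61 to 9.36, 389 of 1994 were called higher. The 6 rises of 26 are thus not read as more than genes of like level gave, which was not tested. Of 29 respiratory chain genes 1 rose, Cox7a2 by 0.42 (adjusted p = 0.0448, at most 0.158 without 1 of 4 arrays), and of 25 proteasome genes 1, Psma3 by 0.26 (adjusted p = 0.0367, at most 0.102 without any 1 array).

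Clock genes changed in 4 of 17 cases. Nr1d1, the repressor REV-ERBα, had 10.10, 10.59 and 10.37 at 24 h, against 11.14, 11.19 and 10.95 at 2 h (change -0.74, SE 0.16, adjusted p = 0.0044). Cry1, Clock and Rora rose by 0.74, 0.57 and 0.55. The hours of the day at which cells were collected are not given in the labels, so the time of day and the exposure cannot be told apart. Nr1d1 also changed by -0.88 in Cebpa-deleted cells (adjusted p = 0.000849). Of 17 glucocorticoid genes 2 rose. Zbtb16, a transcription factor strongly induced by glucocorticoids, had 9.51, 9.83 and 10.55 at 24 h, against 8.60, 8.02 and 8.24 at 2 h (3.21-fold, adjusted p = 0.003). Fkbp5, a co-chaperone of that receptor, rose by 0.70 (adjusted p = 0.0468), lost without 24 h replicate 2 or 3 or 2 h replicate 1 or 2 (highest adjusted p 0.188), and 1 of the 17 rose with the interquartile range as a covariate. Nfkbia changed by -0.08.

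Inflammatory genes were mixed. Of 33 cytokines and chemokines 3 rose and 4 fell. Cxcl16, a membrane-bound chemokine, had 10.97, 10.96 and 11.27 at 24 h, against 10.47, 10.32 and 10.35 at 2 h (change 0.69, SE 0.11, adjusted p = 0.000449). Ccl20 rose by 0.57 and the neutrophil attractant Cxcl1 by 0.44, while Il33, Ccl5, Lif (-0.61) and Ccl9 (-0.59) fell. Cxcl15, the lung chemokine of highest level, changed by -0.03. The lower count was 2, 4 and 2 without 24 h replicates 1, 2 and 3 and 2, 2 and 4 without 2 h replicates 1, 2 and 3, with Il33 and Ccl5 called throughout (highest adjusted p 0.119 for Lif and 0.103 for Ccl9), and the higher count was 1 or 2 without any 1 array, with Cxcl16 called throughout. Among acute phase and defence genes Saa3, serum amyloid A3, had 7.21, 6.92 and 7.39 at 24 h, against 6.09, 5.72 and 5.95 at 2 h (change 1.25, SE 0.14, adjusted p = 1.38e-05), and the lysozyme genes Lyz2 (-0.07) and Lyz1 (-0.23) were not called. In that list 3 of 27 rose and 2 fell, and 1 rose, Saa3, without 24 h replicate 1 or 2 or 2 h replicate 1 or 2. With the interquartile range as a covariate 4 of the 27 were called lower. Of 20 interferon response genes and 7 MHC class II genes 0 were called in limma (4 and 0 at an unadjusted p below 0.05). Of 30 immediate early genes 1 was, Klf6 by 0.32 (adjusted p = 0.0478, at most 0.164 without 1 of 5 arrays), while Fosb (0.17) and Atf3 (0.15), both of high level, were not. Of 16 genes of NF-κB feedback 2 were called higher, the subunits Rel by 0.42 (adjusted p = 0.0499) and Rela by 0.35 (adjusted p = 0.0379), and 1 lower, the adaptor gene Traf1 by 0.60 (adjusted p = 0.0022). Rel lost its call without 24 h replicate 1 or 3 or 2 h replicate 3 (highest adjusted p 0.207) and Rela without any 1 array other than 24 h replicate 2 (highest 0.2). After a second quantile normalization 0 of the 16 were called higher and 2 lower.

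Barrier genes rose in 3 of 19 cases and fell in 1. Pof1b, an actin-binding protein of epithelial junctions, had 9.12, 8.90 and 9.07 at 24 h, against 7.64, 7.82 and 8.07 at 2 h (change 1.18, SE 0.21, adjusted p = 0.000912). The tight junction scaffold gene Tjp1 rose by 0.46 and the keratin gene Krt13 fell by 0.70, and 3 were called lower with the interquartile range as a covariate. Of 25 ribosome biogenesis genes 4 rose, with Utp20 of the small subunit highest (0.76, adjusted p = 0.000213), and 1 fell; the higher count was 2 without 24 h replicate 1 or 2 or 2 h replicate 2, and with the interquartile range as a covariate. Of 17 EGF and ERK feedback genes 1 rose, the phosphatase gene Dusp4 by 0.70, and 1 fell (2 with the interquartile range as a covariate). Of 19 xenobiotic enzymes 2 rose and 2 fell, among them paraoxonase, Pon1, by 0.86 (adjusted p = 0.0022), or 1 each way with that covariate. Of 16 metallothionein and iron genes 3 rose and 0 fell, with 1 higher without 24 h replicate 1 or 3 or 2 h replicate 1 or 3, and with 2 lower under that covariate.

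**Figure D5:**
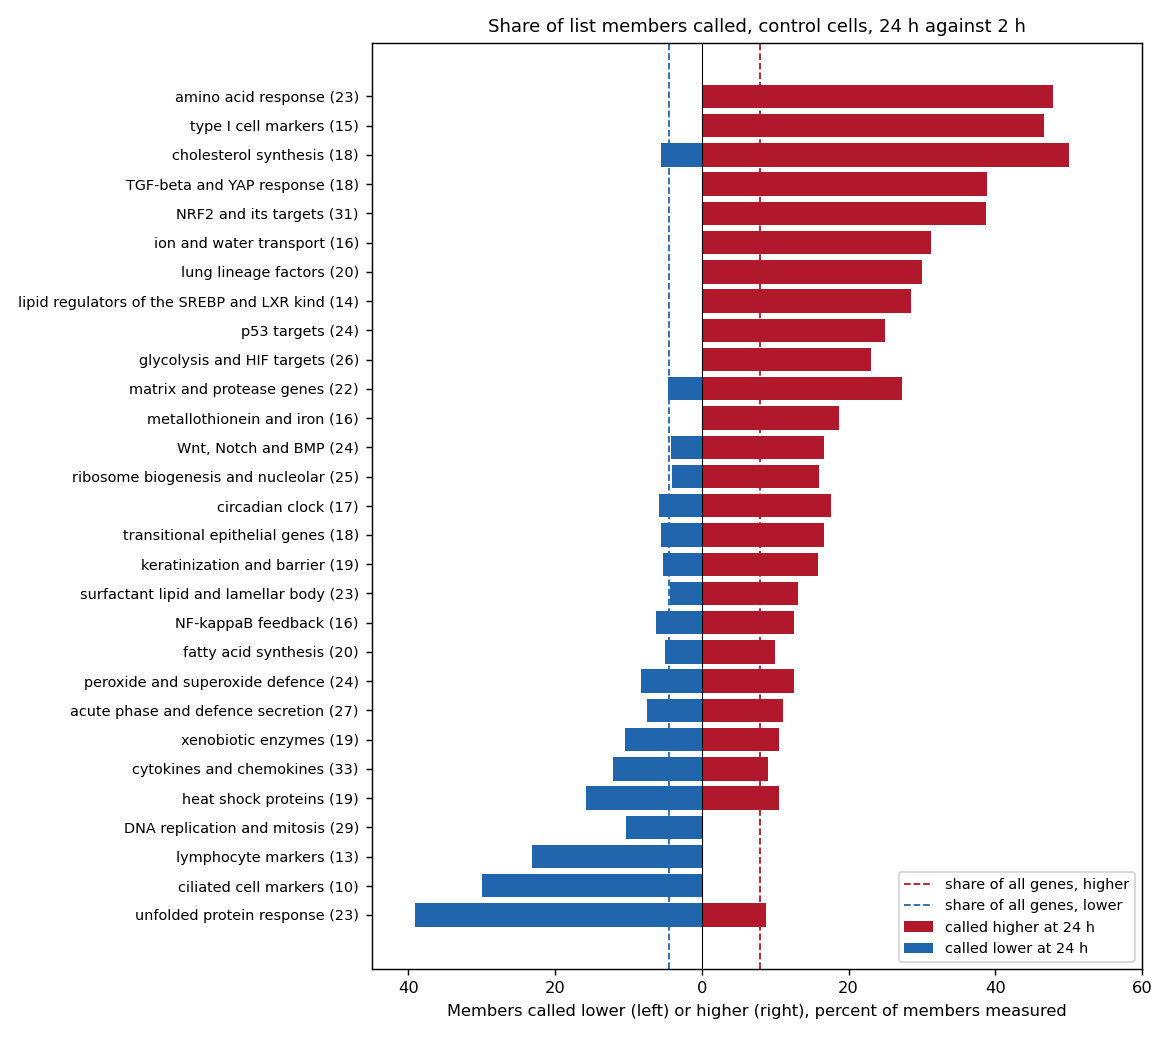
Share of measured members called higher (right, red) or lower (left, blue) at 24 h against 2 h in control cells, in percent, for each list with 3 or more called members; the number measured is in brackets. Dashed lines are the shares of all genes, 7.97% higher and 4.46% lower, and are not matched to the level of each list. The amino acid response, type I and cholesterol lists lie at the top and the unfolded protein response at the bottom.

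Of 29 DNA replication and mitosis genes 0 were called higher and 3 lower, Ccnd1, cyclin D1, by 0.49, and Mcm4 and Plk1 by 0.39 each, with 0 to 2 called lower when 1 array was left out (0 without 2 h replicate 2, 1 without 24 h replicate 1 or 3). Pcna changed by 0.18 (adjusted p = 0.419). Of 16 BCL2 family genes 2 fell, the death promoters Bmf by 0.51 and Bad by 0.39, of which Bmf was lost without 24 h replicate 3 or 2 h replicate 3 (highest adjusted p 0.0739).

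Of the 1590 genes called higher in control cells 247 were also called higher in Cebpa-deleted cells, and for 1025 the change was lower in Cebpa-deleted cells by the test of the difference. Of the 890 called lower 213 were also called lower in Cebpa-deleted cells, and for 507 the change was higher there. The share of all genes called in Cebpa-deleted cells is not given here. The overlaps of 247 and 213 genes are therefore not read as large or small. Over all 19938 genes the difference was called lower for 3280 (16.5%) and higher for 2858. The control change enters both the choice of these genes and the difference. The choice alone therefore pushes the counts of differences this way, and no conclusion is drawn from them. Lsmem1 rose in both, by 1.87 in Cebpa-deleted cells, against 2.91 in control cells, with a difference of -1.04 (adjusted p = 0.0133). Il13ra2 changed by 0.07 in Cebpa-deleted cells (adjusted p = 0.746), against 2.00 in control cells, a difference of -1.93 (adjusted p = 0.000454). Nnat changed by -1.47 in Cebpa-deleted cells, against -1.71 in control cells (difference 0.24, adjusted p = 0.437). As given above, 0 of these differences passed with the interquartile range as a covariate.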

How the data were processed

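Total RNA was extracted with guanidine thiocyanate, per the labels' protocols. The deposited log2 expression values come from RMA, which the submitters' processing notes name. The RMA version, the arrays normalized together, any filter and the genome build are not given in the sources used here, so no probe coordinates are reported. Of 35557 features, 21789 had 1 gene symbol in the platform annotation (21698 matched RefSeq by Entrez ID), 1621 had several and 12147 none; the last 2 kinds were left out. For 999 genes with several features the one of highest mean over the 18 arrays stood for the gene. No gene was dropped for low values, leaving 19938. No 2 arrays were identical.

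With limma 3.58.1 (lmFit and eBayes, R 4.3.3) each gene got a linear model of 6 group means over all arrays, with contrasts 24 h minus 2 h in each genotype and the difference between genotypes. Tests are two-sided, with Benjamini-Hochberg adjustment over the 19938 genes and calls below 0.05. In simulated data of 19938 genes this recovered 68 of 100 genes changed 1.5-fold and 99 of 100 changed 2-fold, with 10 false calls. These counts belong to the simulated data and are not an error rate for the real arrays, whose interquartile range moved with time. Of the 2480 genes called in control cells, 1452 were also called with that range as a covariate. Arrays of 1 group correlated with r of 0.989 to 0.995 across genes. Replicate numbers did not pair arrays (correlations of deviations of same-numbered arrays -0.126, -0.036 and -0.028). The number of arrays limits the precision.

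The members and the 47 gene lists (841 genes measured) were chosen with earlier results of these data known, and lists are described by counts and medians. Named genes were the 20 largest rises and 20 largest falls that were called with separate groups of arrays (RIKEN, predicted and olfactory genes passed over), up to 5 called members and 2 uncalled members of highest level per list, the C/EBP and surfactant protein genes, and the 5 largest differences between genotypes each way; fewer are printed. Other list members named (Clic5, Stard4, Sqle, Hmgcs1, Ebp, Phgdh, Atf4, Ddit3, Atf6, Creld2, Pdia3, Calr, Xbp1, Dnajc3, Gclm, Gclc, Nfe2l2, Hmox1, Mdm2, Tgfb1, Hif1a, Ccl20, Cxcl1, Aqp5, Cd3e, Nkx2-1) and the sex-linked genes were chosen after their values were seen. Promoters are RefSeq's. Other settings are in the closing section.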

Additional observations from a re-analysis of the deposited data

Results flagged for a closer look

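The change from 2 to 24 h differed between genotypes by the test of the difference (Cebpa-deleted minus control) for 6138 genes, 30.8% of those tested. The differences below passed that test at a limma adjusted p below 0.05. None of them, and no other gene, passed with each array's interquartile range as a covariate, and the range narrowed with time in Cebpa-deleted arrays while it widened in controls. That fit also estimates the difference less precisely, and range and genotype cannot be told apart in it. The part of the range was not tested further.

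The largest positive differences were those of Srsy (3.04), the microRNA gene Mir680-2 (2.28), the keratin-associated protein genes Krtap5-4 (2.19) and Krtap5-2 (2.09), and Mir680-1 (2.11). With the covariate the value for Srsy was 2.05 (adjusted p = 0.266) and that for Krtap5-4 was 0.43 (adjusted p = 0.847). Srsy rose by 1.30 in Cebpa-deleted cells (adjusted p = 0.00071), against a fall of 1.74 in control cells.

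The largest negative differences were those of the guidance molecule gene Sema3a (-2.31), Tecrl (-1.96), Il13ra2 (-1.93), the chitinase-like gene Chil1 (-1.87) and the muscle-type phosphatase gene Fbp2 (-1.81). With the covariate Chil1 gave 0.22 (adjusted p = 0.971), opposite in sign, and Il13ra2 gave -1.53 (adjusted p = 0.309).

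Among type I markers Igfbp2 (-1.59), Pdpn (-1.37) and Col4a3 (-0.86) differed. Among cholesterol synthesis genes Lss (-1.36), Cyp51 (-1.34), Hsd17b7 (-1.23), Idi1 (-1.13) and Sc5d (-1.03) did. Genes of both lists were taken up for their rise in control cells, which also enters the difference. With the covariate Cyp51 gave 0.37 (adjusted p = 0.807) and Lss 0.33 (adjusted p = 0.84), while Igfbp2 gave -1.49 (adjusted p = 0.641).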

How the results depend on the processing

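Of 175 named genes called in control cells, 98 kept their call and 77 lost it in at least 1 other setting, and 0 changed sign; 75 lost it without at least 1 single array. The number called ranged from 1398 to 2143 when 1 array was left out, and was 744 with a change of at least 1.5-fold required, 3434 with only the 6 arrays compared (52.3% higher), 2785 when each array's interquartile range was a covariate (44.3% higher) and 2147, 75.4% of them higher, among the upper 60 percent of genes by level. With the replicate number as a block it was 2041, although the numbers did not pair the arrays. The number of genes whose change differed between genotypes was 6138. It ranged from 2563 to 8608 when 1 array was left out, and was 3638 with the replicate block, 2595 after a second quantile normalization, 4073 among the upper 60 percent of genes by level (a smaller set tested, 15.4% of calls higher), 3222 with at least 1.5-fold required, and 0 with the range as a covariate (1774 at an unadjusted p below 0.05). For these the cause was not tested, apart from fewer genes or arrays where the setting itself removes them. Values with no call changed sign for Cebpd (-0.0039) and Cebpe (0.04) with the range as a covariate, Sftpc (-0.0024) and Sftpd (-0.21) likewise, Sftpd without control 24 h replicate 2 (-0.01, the range over left-out arrays being -0.01 to 0.15), and Sftpb without control 2 h replicate 3 (0.0093, range -0.05 to 0.0093), after quantile normalization (0.12) and with arrays centred on their medians (0.0049). The counts with 12 arrays, means of features, single features, median centring and eBayes with trend stayed within 1.5 times. With only the 12 arrays at 2 and 24 h, so without the 0 h arrays, 1934 genes were called in control cells. Of the 175 named genes 25 lost their call there. RMA values do not give a background level, so a floor for low genes is not known.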
